A study of Homo sapiens with 4 samples.

Results

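*IFI6*, *IFI27*, *IFI35*, *IFI44* and *IFI44L* are 5 genes that cells switch on after exposure to interferon alpha, and they are described here in glioblastoma cells with and without knockdown of the ETS transcription factor *FLI1*. They are 5 of the 46660 gene identifiers in the deposited table. The genes were chosen by name as interferon-inducible genes when their lower counts in shFLI1 cells were already known, so their changes after knockdown are given as a description and without a test. RNA-seq was performed in U87MG and U251MG cells, both established human glioblastoma cell lines, with 1 library of control cells and 1 library of shFLI1 cells in each line. Control cells carried a control lentiviral vector (pGreen in the treatment labels, shControl in the sample titles). The shFLI1 cells were infected with lentivirus expressing shRNA against *FLI1*. For this shRNA the design lists 2 hairpins without saying which of them a library carried. All 4 cultures had therefore been infected and selected with puromycin, each was a mixed stable population, and no uninfected cells were analysed here. With 1 library per condition there is no replicate check within a cell line, and every interval given covers counting error only.

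Type I interferon binds the receptor chains IFNAR1 and IFNAR2, and the kinases JAK1 and TYK2 then phosphorylate STAT proteins such as STAT2. Together with IRF9 these enter the nucleus, bind interferon-stimulated response elements (ISREs) in promoters and turn on a large group of antiviral genes. *IFI6* and *IFI27* encode small hydrophobic membrane proteins of the same family, *IFI35* encodes a protein that binds its partner NMI, and *IFI44* and *IFI44L* are related genes with antiviral activity that lie side by side.

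The promoter stretches below show where the response element letters lie in each gene. Each stretch is the 190 bases before the transcription start in the RefSeq promoter table of GRCh38.p14, written in the direction of transcription, and the capitals mark the ISRE core (GAAA, any 2 bases, then GAAA again) on either strand. *IFI6* lies on chromosome 1 on the minus strand (27666064 to 27672192, Entrez gene 2537) and its stretch covers chr1:27672193-27672382. *IFI27* lies on chromosome 14 on the plus strand (94105894 to 94116690, Entrez gene 3429) and its stretch covers chr14:94110546-94110735. *IFI35* lies on chromosome 17 on the plus strand (43006784 to 43014456, Entrez gene 3430) and its stretch covers chr17:43006594-43006783. *IFI44L* (78620448 to 78646145, Entrez gene 10964) and *IFI44* (78649789 to 78664078, Entrez gene 10561) lie on the plus strand of chromosome 1 with 3643 bases between them, and their stretches cover chr1:78620258-78620447 and chr1:78649599-78649788.
IFI6: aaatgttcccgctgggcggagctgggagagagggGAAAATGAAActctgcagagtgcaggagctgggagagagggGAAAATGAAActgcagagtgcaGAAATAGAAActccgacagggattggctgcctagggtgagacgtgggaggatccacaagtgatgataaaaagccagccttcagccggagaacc
IFI27: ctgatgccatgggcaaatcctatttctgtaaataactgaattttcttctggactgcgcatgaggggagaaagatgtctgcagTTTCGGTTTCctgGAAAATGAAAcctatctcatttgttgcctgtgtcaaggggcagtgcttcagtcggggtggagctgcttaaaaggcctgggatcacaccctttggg
IFI35: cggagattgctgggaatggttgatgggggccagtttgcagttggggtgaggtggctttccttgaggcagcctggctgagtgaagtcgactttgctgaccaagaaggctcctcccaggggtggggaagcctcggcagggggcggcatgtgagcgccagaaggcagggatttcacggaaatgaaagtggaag
IFI44L: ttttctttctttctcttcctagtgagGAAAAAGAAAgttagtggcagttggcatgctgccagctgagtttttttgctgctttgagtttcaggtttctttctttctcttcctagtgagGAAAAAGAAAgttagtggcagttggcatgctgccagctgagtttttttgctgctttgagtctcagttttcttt
IFI44: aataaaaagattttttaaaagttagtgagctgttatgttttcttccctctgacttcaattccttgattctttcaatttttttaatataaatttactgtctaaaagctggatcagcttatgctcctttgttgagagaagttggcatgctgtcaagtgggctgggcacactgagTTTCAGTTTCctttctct

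The ISRE core was present in the promoters of 4 of the 5 genes, against 1195 of all 27305 genes. By promoter entry it was 3.58% of 35093 entries. Each of these runs from 250 bases before to 50 after the start, which is longer than the 190 bases printed above. The genes were chosen as interferon-inducible, so nothing is read from this count. *IFI6* held 3 copies, which begin 156, 115 and 93 bases before the start, and the first and second lie in an exact repeat of 29 bases. *IFI44L* held 2 copies, 164 and 73 bases before the start, 1 in each copy of an exact 85-base repeat whose copies begin 189 and 98 bases before the start. *IFI27* held 2 copies on opposite strands, 108 and 95 bases before the start, and *IFI44* held 1 copy 18 bases before it. *IFI35* had no match to these letters. They require exactly 2 bases between the GAAA parts. The GAAATGAAA near the end of the *IFI35* stretch, with 1 base between, was not counted. The gamma-activated site TTCNNNGAA, which reads the same on both strands, had a match in *IFI27*, where it overlaps both ISRE cores, and in *IFI35* 22 bases before the start, against 7.66% of all promoters. The ETS letters CCGGAAG had no match on either strand in any of the 5, and 10.3% of all promoters hold them. They are a strict form of what FLI1 and its relatives bind. Shorter forms such as GGAA, which occurs in some of the stretches above, were not counted. *IFI27* and *IFI44* have a further entry each in the promoter table, with the same matches. These are matches of letters in a window and not sites, and no binding was measured here.

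*FLI1* itself had 107 and 52 counts in U87MG control and shFLI1 and 216 and 111 in U251MG, or 9.34, 2.34, 12.1 and 3.71 CPM. Totals ranged from 12229780 to 28891055 counts per library, and the shFLI1 library was the deeper one of each line. Of the glial markers, *VIM*, *NES*, *SOX2* and *CD44* had at least 1337 counts in each library, and *OLIG2* and *S100B* had at most 2 and 11. *GFAP* rose in shFLI1 cells, from 634 to 1587 CPM in U87MG and from 20.4 to 93.8 CPM in U251MG (edgeR adjusted p 0.0152), and its part in the results was not tested. Of the markers of blood, endothelial and neuronal cells, *CD14* had 10 to 31 counts and *PTPRC*, *PECAM1* and *RBFOX3* had at most 5.

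All 5 genes were lower in shFLI1 than in control cells of both lines, by 3.23-fold to 5.19-fold in U87MG and by 4.73-fold to 18.4-fold in U251MG. Levels within a gene are given as CPM after TMM scaling of the 4 libraries. In U87MG, 5 of 5 genes were lower by 2-fold or more, where 4.45% of the 17355 genes that reached 10 counts in either library were. In U251MG, 5 of 5 were lower by 2-fold or more, where 4.19% of 18222 genes were. The contrast is the one that was known when the genes were chosen, so nothing is read from these counts. The median log2 fold change of the 5 was -2.01 in U87MG and -2.73 in U251MG, and that of all tested genes was 0.06 and 0.04. These are bulk libraries, in which fewer expressing cells and less RNA per cell cannot be told apart.

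*IFI6*, a mitochondrial and endoplasmic reticulum membrane protein that restrains apoptosis and flavivirus replication, was the most abundant of the 5 in control cells. Its counts were 19159 (U87MG control), 9221 (U87MG shFLI1), 44710 (U251MG control) and 4071 (U251MG shFLI1), or 1673, 415, 2508 and 136 CPM. The U251MG pair thus held both its highest and its lowest level, as it also did for *IFI35* and *IFI44L*. As a log2 fold change, shFLI1 minus control, this was -2.01 in U87MG (-2.05 to -1.98, 95% Clopper-Pearson) and -4.20 in U251MG (-4.25 to -4.16), so that 24.8% and 5.42% of the control level were left. Ranked by log2 fold change from the lowest, among genes reaching 100 counts in either library of the pair, it was 45 of 11380 in U87MG and 15 of 12129 in U251MG.

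*IFI27*, a mitochondrial and nuclear envelope protein also known as ISG12, had 787, 152, 1188 and 179 CPM in U87MG control, U87MG shFLI1, U251MG control and U251MG shFLI1. Both controls were above both shFLI1 libraries, as in each of the 5 genes, and the shFLI1 libraries lay close together. Its log2 fold change of -2.38 in U87MG (95% interval -2.43 to -2.32) was the lowest of the 5 in that line. In U251MG it was -2.73 (-2.77 to -2.69), the third largest.

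*IFI35* encodes a leucine zipper protein that forms a complex with NMI and had the lowest CPM of the 5 in all 4 libraries. It had 1037, 624, 2438 and 704 counts in the same library order, or 90.6, 28.1, 137 and 23.5 CPM. Its log2 fold change was -1.69 in U87MG (95% interval -1.84 to -1.55), the smallest of the 5, and -2.54 in U251MG (-2.66 to -2.42).

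*IFI44*, a cytoplasmic protein that forms aggregates with microtubules and restrains growth when overexpressed, had 139, 40.7, 262 and 55.5 CPM. Its U251MG libraries were each above the matching U87MG library. The log2 fold change was -1.77 in U87MG (95% interval -1.89 to -1.65) and -2.24 in U251MG (-2.32 to -2.16), the smallest of the 5 in U251MG. *IFI44L*, its neighbour and relative, had 198, 45.1, 393 and 41.8 CPM. Its controls differed between the lines, while its shFLI1 libraries were at nearly the same level. The log2 fold change was -2.13 in U87MG (95% interval -2.24 to -2.02) and -3.23 in U251MG (-3.32 to -3.14).

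**Figure D1:**
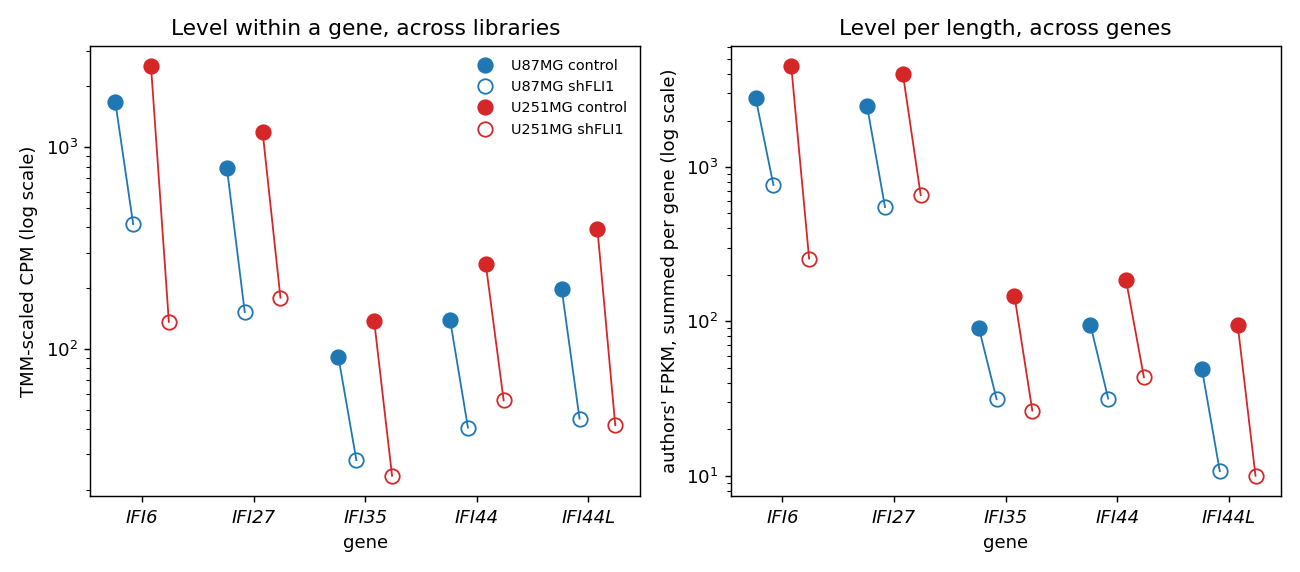
Levels of the 5 genes in the 4 libraries, as TMM-scaled CPM (left) and as the authors' FPKM summed over the RNAs of a gene (right), both on log axes; filled points are control and open points shFLI1 libraries, and lines join the libraries of a cell line. Each control lies above its shFLI1 library, and *IFI6* in U251MG spans the widest range, from 2508 to 136 CPM.

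The difference between control and shFLI1 cells was larger in U251MG than in U87MG for 5 of 5 genes, by unlike amounts. The share of all genes with a lower log2 fold change in U251MG was not counted. With a median difference of -0.02 over all genes tested in both lines, a lower value in U251MG is common. The genes were also chosen with earlier results of these data known, so nothing is read from this count. The difference of the log2 fold changes, U251MG minus U87MG, was -2.19 for *IFI6* (95% interval from counting error, -2.25 to -2.13) and -1.10 for *IFI44L* (-1.24 to -0.96). It was -0.85 for *IFI35* (-1.04 to -0.66), -0.47 for *IFI44* (-0.61 to -0.33) and -0.35 for *IFI27* (-0.43 to -0.28). The change of *IFI6* as a fold was thus 4.57 times that in U87MG (18.4-fold against 4.04-fold), and that of *IFI27* 1.28 times (6.64-fold against 5.19-fold). Among 16384 genes tested in both lines, 6.98% had a log2 fold change lower by 1 or more in U251MG, and *IFI6* and *IFI44L* were 2 of the 5 that did. *IFI6* ranked 191 and *IFI27* ranked 3910 of the 16384 by this difference, whose median over all of these genes was -0.02. With 1 library per arm the design leaves no residual degree of freedom for an interaction, so the difference has no test.

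**Figure D2:**
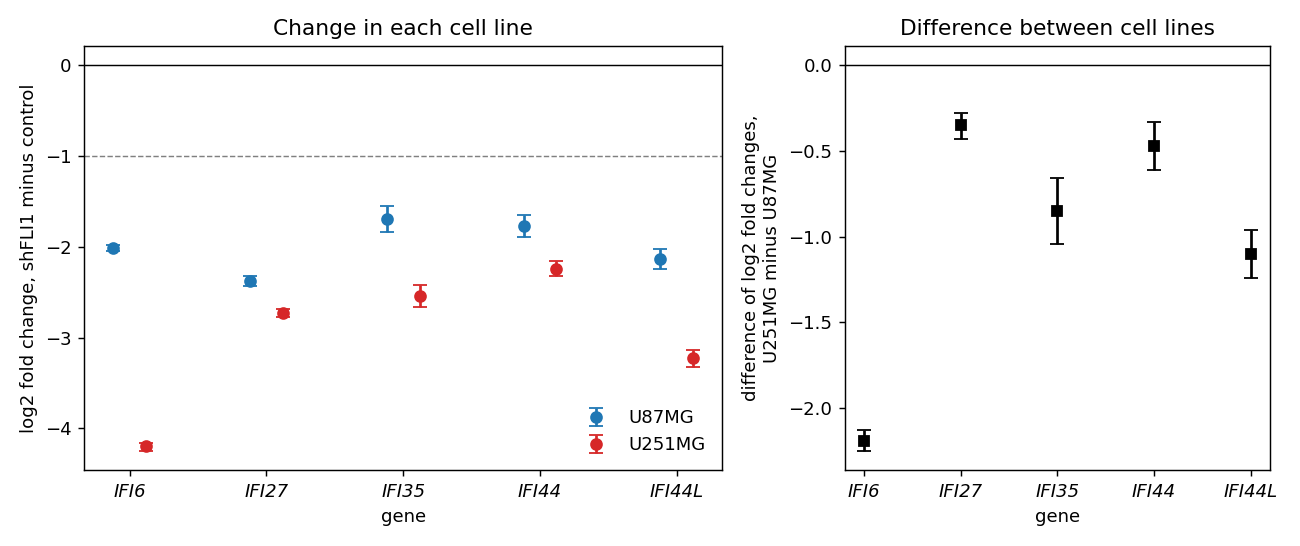
Left, log2 fold change of each gene (shFLI1 minus control) with 95% Clopper-Pearson intervals in U87MG (blue) and U251MG (red); the dashed line marks a 2-fold fall. Right, the difference of the log2 fold changes (U251MG minus U87MG) with 95% counting intervals, from -0.35 for *IFI27* to -2.19 for *IFI6*.

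The difference lay on different sides of the knockdown in different genes. In control cells all 5 genes were higher in U251MG than in U87MG. The log2 ratio was 0.58 for *IFI6* (95% counting interval 0.56 to 0.61), 0.59 for *IFI27* (0.56 to 0.63) and 0.59 for *IFI35*. For *IFI44* it was 0.92 and for *IFI44L* 0.99. The share of all genes higher in U251MG control cells was not counted, so nothing is read from the 5. In the edgeR contrast of the lines over both conditions, given below, 1926 genes were called higher in U251MG and 1046 lower. In shFLI1 cells *IFI27* and *IFI44* were still higher in U251MG, by 1.18-fold and 1.36-fold. *IFI35* was lower in U251MG shFLI1 cells, with a log2 ratio to U87MG shFLI1 of -0.25 (95% counting interval -0.41 to -0.10). For *IFI44L* that log2 ratio was -0.11, and its interval of -0.23 to 0.01 includes 0. *IFI6* was 3.05-fold lower in U251MG than in U87MG shFLI1 cells, a log2 ratio of -1.61 (-1.66 to -1.55). The order of the cell lines thus reversed between control and shFLI1 libraries for *IFI6* and *IFI35* beyond counting error.

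The contrast between the cell lines over both conditions was not used to choose the genes and was put to the quasi-likelihood test of edgeR, fitted to all 4 libraries with condition as an additive term and 1 residual degree of freedom. *IFI44* was higher in U251MG in both pairs of libraries, with a log2 ratio of 0.69 and a Benjamini-Hochberg adjusted p of 0.0250 over 16821 genes. The other 4 genes did not pass the threshold of 0.05. Their log2 ratios and adjusted p values were 0.42 and 0.146 for *IFI27*, 0.45 and 0.252 for *IFI44L*, 0.18 and 0.598 for *IFI35*, and -0.51 and 0.504 for *IFI6*. Each ratio averages the control and shFLI1 libraries, which serve here as the replicates of a line. For *IFI6* it joins opposite values, 0.58 in control cells and -1.61 in shFLI1 cells. In this test 17.7% of all genes passed, so 1 of 5 is close to the share of any gene. Over the alternatives the adjusted p of *IFI44* ranged from 5.03e-04 to 0.621, and it missed the threshold only when the condition was left out of the design.

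The 5 genes together took 0.270% of the U87MG control library and 0.442% of the U251MG control library, against 0.0712% and 0.0452% in the shFLI1 libraries. Their summed level was 2887 and 4488 CPM in the controls and 680 and 436 CPM in shFLI1 cells. *IFI6* supplied 58.0% of the members' counts in U87MG control, 61.0% in U87MG shFLI1 and 55.9% in U251MG control, but 31.2% in U251MG shFLI1, where *IFI27* supplied 41.1%.

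Levels between genes were compared with the authors' FPKM, which divides by transcript length. *IFI6* had 2814 FPKM in U87MG control and 4483 in U251MG control, and *IFI27* had 2465 and 4010. *IFI44* (95.3 and 185), *IFI35* (91.2 and 146) and *IFI44L* (49.1 and 95.3) were lower by more than an order of magnitude. In U87MG shFLI1 the order was *IFI6* at 765 FPKM, *IFI27* at 550, *IFI44* at 31.6, *IFI35* at 31.3 and *IFI44L* at 10.7. In U251MG shFLI1 *IFI27* came first with 657 FPKM, followed by *IFI6* with 255, *IFI44* with 43.4, *IFI35* with 26.4 and *IFI44L* with 9.99. The ratio of *IFI6* to *IFI27* was 1.14, 1.39 and 1.12 in the first 3 libraries and 0.388 in U251MG shFLI1. The ratio of *IFI44* to *IFI44L* was 1.94 in both controls, 2.97 in U87MG shFLI1 and 4.34 in U251MG shFLI1. No spread between replicates is at hand to say which neighbours in these orders differ, and *IFI44* and *IFI35* were nearly equal in both U87MG libraries.

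The table lists 35 RNAs for the 5 genes. Of the RNAs that reached 100 counts in either library of a pair, 14 of 14 in U87MG and 22 of 22 in U251MG were lower by 2-fold or more in shFLI1 cells. Their log2 fold changes ran from -2.98 to -1.43 and from -4.41 to -2.20. The share of all RNAs past this fold was not counted, and some of the RNAs reached 100 counts only in the control library. RNAs of a gene are not separate, and the genes were chosen with this contrast known, so nothing is read from these counts. The NM_002038 RNA of *IFI6* took 84.3%, 83.6%, 84.0% and 83.7% of the gene's counts in U87MG control, U87MG shFLI1, U251MG control and U251MG shFLI1. The composition of *IFI6* was thus nearly the same in all 4 libraries, although its level differed by more than an order of magnitude. NM_001288956, the main RNA of *IFI27*, took 48.8%, 48.8%, 50.6% and 51.0% in the same order. NM_006417, the main RNA of *IFI44*, took 93.2%, 90.2%, 90.1% and 92.8%, and it was the 1 RNA of that gene to reach 100 counts in U87MG.

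The composition varied more in *IFI35* and *IFI44L*. NM_005533 of *IFI35* took 54.4% in U87MG control and 65.0% in U87MG shFLI1, and 63.6% and 69.6% in U251MG. In U87MG control 6.81% of *IFI35* counts were given to XM_017024584, which was at 0 in the other 3 libraries, while XM_017024585 was at 0 in U87MG control and had 3.11% to 6.68% elsewhere. NM_006820 of *IFI44L* took 67.8% and 79.9% in U87MG control and shFLI1, and 69.6% and 71.0% in U251MG. These shares are the authors' estimates for RNAs that overlap one another. Of the 11 RNAs of *IFI27*, 3 are second placements of an RNA listed elsewhere, with the same values as their counterpart, and they held 3.73% to 5.43% of the counts of the gene.

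**Figure D3:**
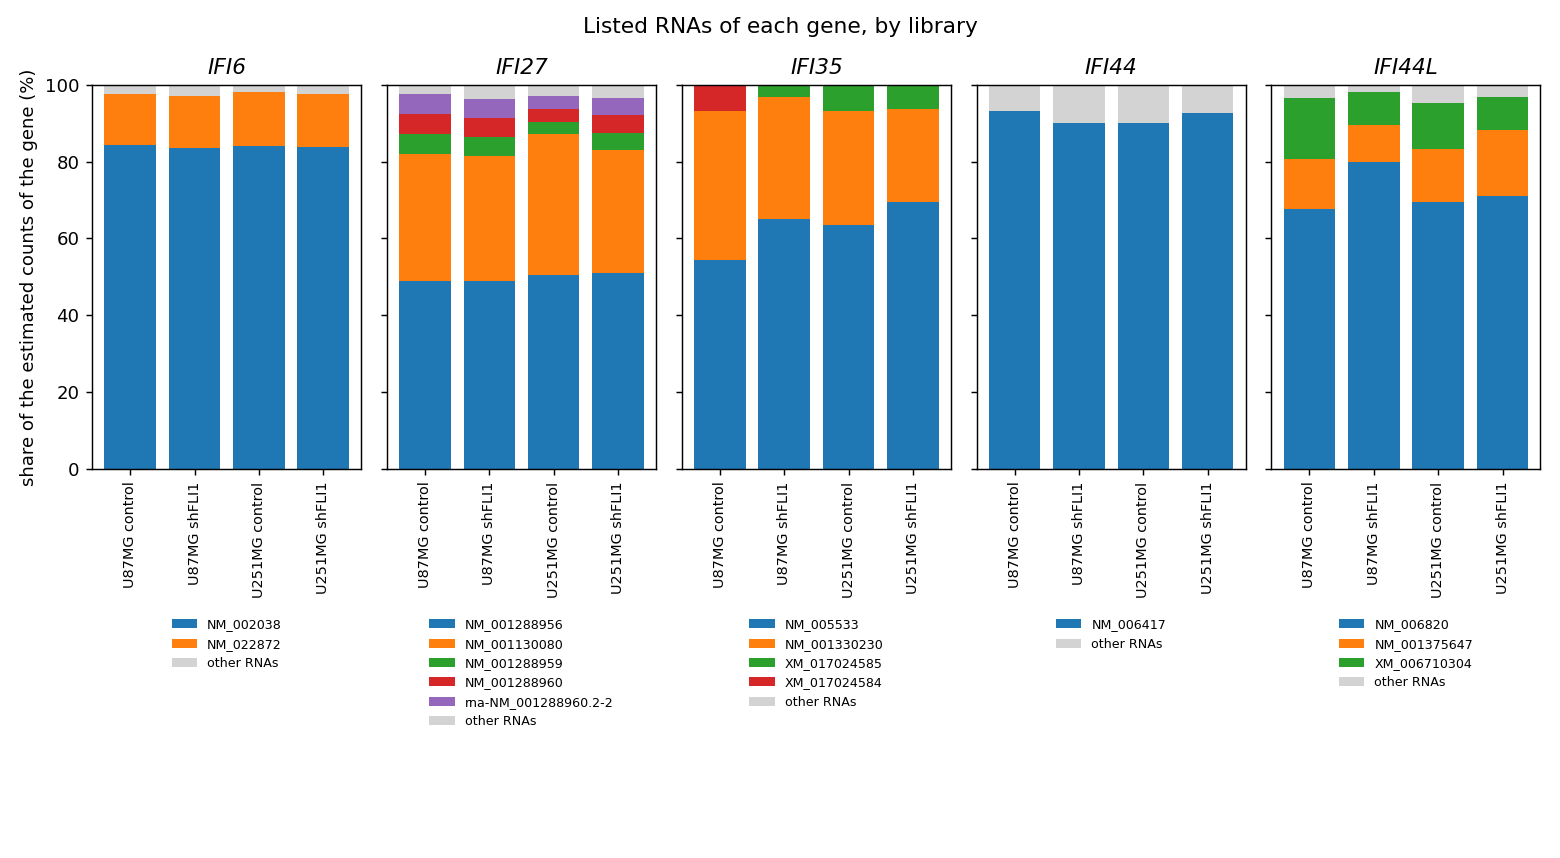
Share (%) of each gene's estimated counts given to its listed RNAs in the 4 libraries; RNAs with at least 5% in 1 library are coloured and the rest are grey. The main RNA of *IFI6* stays between 83.6% and 84.3%, and that of *IFI35* between 54.4% and 69.6%.

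No stretch of 31 bases was shared between the annotated transcripts of any pair of the 5 genes, the paralogs *IFI44* and *IFI44L* included. Stretches shared with other genes made up 19.3% of *IFI6* (some of them with *LINC02574*), 6.96% of *IFI35*, 2.07% of *IFI27*, 0.0253% of *IFI44L* and 0 of *IFI44* (GENCODE v44 transcripts).

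Upstream of these genes, the interferon transcripts themselves were hardly counted. Of 20 listed type I and type III interferon genes, 5 had rows in the table, and their summed counts were 9 in U87MG control, 17 in U87MG shFLI1, 8 in U251MG control and 6 in U251MG shFLI1. The following calls are of the effect of shFLI1 shared by both lines, from edgeR's quasi-likelihood test with the cell line as a block, in which 1.60% of 16821 genes fell and 0.654% rose at a Benjamini-Hochberg adjusted p below the threshold. The gene lists were chosen when results of this contrast were known, so the calls describe the listed genes and are not independent support for a direction. None of the 4 receptor genes passed, with adjusted p values from 0.128 to 0.657, nor did the kinase genes *JAK1* (0.970) and *TYK2* (0.792). *IFNAR1* differed from control by 0.58 (log2) in U87MG and 0.43 in U251MG, and *IFNAR2* by 0.20 and 0.15.

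*STAT2* and *IRF9*, whose products bind the ISRE in a shared complex, both fell. *STAT2* had 147 and 57.3 CPM in U87MG control and shFLI1 and 212 and 74.6 CPM in U251MG, with log2 fold changes of -1.36 and -1.51 (shared edgeR adjusted p 0.00391). *IRF9* had 79.6, 40.9, 79.8 and 32.2 CPM in the same order, with log2 fold changes of -0.96 and -1.31 (adjusted p 0.0140). Of 6 regulators, *USP18*, which removes ISG15 from proteins and dampens receptor signalling, fell with -2.26 and -3.04 (adjusted p 0.00186), and *IRF1* fell with -0.88 and -1.80 (adjusted p 0.0286). *IRF2*, *SOCS1* and *SOCS3* did not pass, with adjusted p values of 0.398, 0.396 and 0.983. *IRF7*, itself an interferon-inducible factor, had 0, 0, 1 and 0 counts and could not be tested. In all, 4 of the 13 pathway genes tested and reported here fell, beside the 1.60% of all genes.

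Of 6 listed genes related by name or product, 4 fell, beside 1.60% of all genes, and these too were listed with results of the contrast known. *IFI27L1* and *IFI27L2*, which belong to the family of *IFI27* and *IFI6* and lie on either side of *IFI27* at 3185 and 11091 bases, had U87MG log2 fold changes of -0.48 and -0.57 and U251MG values of -0.48 and -0.44. Neither passed the shared test (adjusted p 0.271 and 0.308). *NMI*, the partner of *IFI35*, fell from 15.5 to 6.11 CPM in U87MG and from 20.1 to 6.11 CPM in U251MG, with log2 fold changes of -1.32 and -1.70 (adjusted p 0.0145). The 3 listed genes that also carry an IFI name fell. *IFI16*, a sensor of nuclear DNA, had -0.96 and -1.37 (adjusted p 0.0136), *IFI30*, a lysosomal thiol reductase, had -1.29 and -2.14 (adjusted p 0.0216), and *IFIH1*, the RNA sensor MDA5, had -1.86 and -3.18 (adjusted p 0.00864).

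The IFIT and OAS families were listed because their lower level was known, so their values are given with no test. The 4 IFIT genes listed (*IFIT1*, *IFIT2*, *IFIT3* and *IFIT5*), which encode RNA-binding antiviral proteins, had medians of -2.14 in U87MG and -3.95 in U251MG, and the 4 OAS genes listed, which encode sensors of double-stranded RNA and a relative, had -2.97 and -4.25. The median difference of the log2 fold changes between the lines was -1.63 for the IFIT genes, -1.05 for the OAS genes and -0.85 for the 5 genes. The -2.19 of *IFI6* lay below the range of -1.97 to -0.90 of the IFIT genes and of -1.72 to -0.89 of the OAS genes. The -1.10 of *IFI44L* lay inside both ranges, and the -0.35 of *IFI27*, -0.47 of *IFI44* and -0.85 of *IFI35* lay above both. Whether the groups differ was not tested, and all comparisons share the same 4 libraries.

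**Figure D4:**
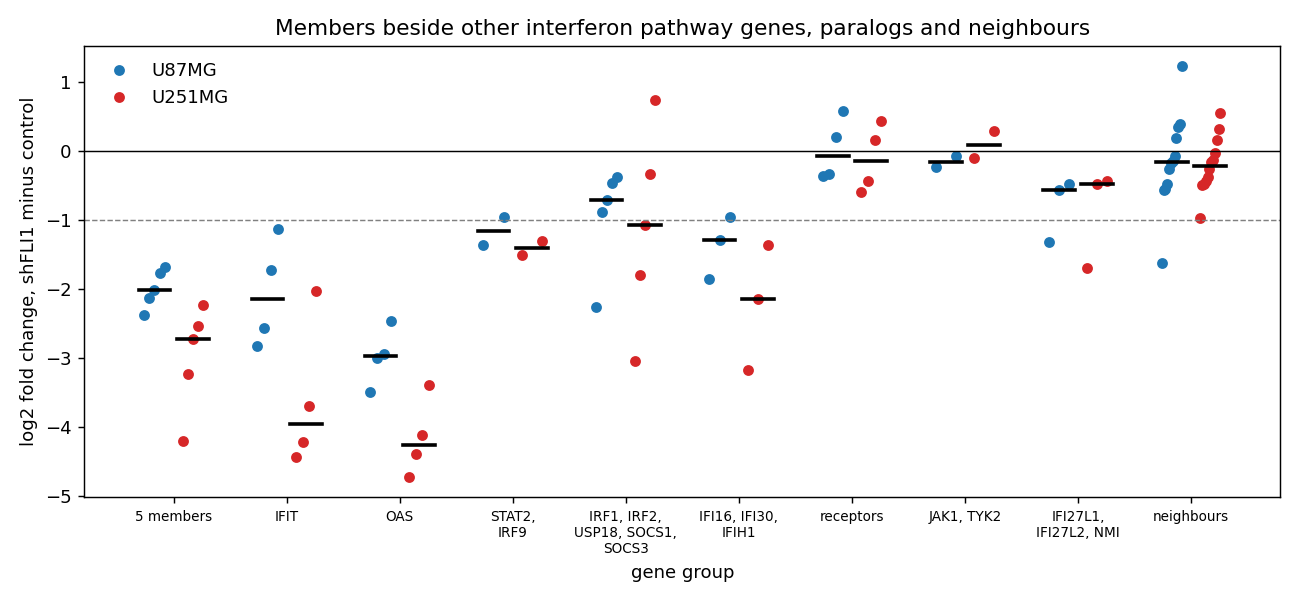
Log2 fold change (shFLI1 minus control) in U87MG (blue) and U251MG (red) of the 5 genes, of other interferon pathway genes with at least 10 counts, of paralogs and of neighbours; each point is a gene, black bars are group medians and the dashed line marks a 2-fold fall. The 5 genes have medians of -2.01 and -2.73, the receptors -0.07 and -0.15, and the neighbouring genes -0.16 and -0.22.

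Of the genes next to the 5 on their chromosomes, 1 of 12 tested fell in the shared test, beside 1.60% of all genes. Of 16 neighbouring protein-coding genes (the 2 nearest on each side), 12 were tested, with medians of -0.16 in U87MG and -0.22 in U251MG. *VAT1*, which lies 151 bases from *IFI35*, had -0.15 and -0.14. *PTGFR*, the prostaglandin F receptor gene 79747 bases from *IFI44L*, fell, with -1.63 and -0.98 (edgeR adjusted p 0.0491, DESeq2 0.0638).

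The genes whose pattern over the 4 libraries was most like each of the 5 were found by the Euclidean distance between log2 CPM centred over the libraries, among 12043 other genes with a symbol and at least 100 counts in 1 library. For *IFI6* they were *TRIM22* (distance 0.28), *HERC6* (0.54) and *ISG15* (0.59), and for *IFI27* they included *NLRC5* (0.18) and *SHFL* (0.34). *PARP12* (0.20), *DDX60L* (0.21) and *TRANK1* (0.26) were nearest to *IFI35*, and *BTN3A2* (0.18), *CASP1* (0.21) and *B2M* (0.23) to *IFI44*. *SHFL* (0.27) and *USP18* (0.37) were among the 3 nearest to *IFI44L*. *TRIM22* had 50.3, 9.80, 72.1 and 4.04 CPM, with log2 fold changes of -2.35 and -4.13. Among the 5 genes themselves, *IFI27* and *IFI44L* were closest to each other, at 0.39, and *IFI6* was at 1.18 or more from each of the others. *IFI44* and *IFI44L*, although adjacent, were 0.78 apart.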

How the data were processed

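Poly-T selected RNA was sequenced as paired-end reads, which the authors aligned to GRCh38 (HISAT2) before StringTie gave the FPKM values. The deposited table gives an estimated count and an FPKM for each of 185042 linear RNAs; the tool behind the estimated counts is not given in the sources used here. Circular RNAs and 10 other value columns, which hold TPM or averages, were left out.

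Estimated counts were summed by gene identifier (46660) and rounded to whole numbers. Symbols came from RefSeq (GRCh38.p14), which matched 23775 of 24411 Entrez identifiers. The 5 genes and all gene lists were chosen with earlier results of these data known. TMM scaling, CPM and log2 fold changes with a prior count of 2 were computed with edgeR 4.0.16 in R 4.3.3. Calls by fold needed 10 counts in either library of a pair. The quasi-likelihood tests over the 4 libraries used filterByExpr and Benjamini-Hochberg adjustment over all genes kept; the script was tested on simulated data. DESeq2 1.42.0 was an alternative. Clopper-Pearson intervals (95%) of read proportions were computed with scipy 1.17.1; intervals of differences between cell lines used a normal approximation on the log scale. PCR reads are not independent molecules. Genes named are the 5 members, *FLI1*, the 3 genes most like each member, and fixed lists of pathway, related and neighbouring genes; some genes that these rules name are not reported here. Each sample is 1 library of a mixed stable culture. The p-values of the shared shFLI1 effect thus treat the 2 cell lines as replicates. Those of the cell line contrast treat the control and shFLI1 cultures of a line as its replicates.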

Additional observations from a re-analysis of the deposited data

Results flagged for a closer look

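The change after knockdown had opposite directions in the 2 cell lines for 4 of the listed genes outside the 5. Each had a counting interval that leaves out 0 in both lines. The share of all genes that meet this was not counted, so nothing is read from the 4. Such intervals narrow with depth, and *VIM*, with 35318 to 209753 counts, met it with small changes. *SOCS3*, which encodes a feedback inhibitor of cytokine receptors, differed from control by -0.71 (log2) in U87MG and by 0.74 in U251MG. *JAK1* had -0.24 and 0.28. *RUNDC1*, a neighbour of *IFI35*, had 0.39 and -0.27. *VIM*, the glial marker vimentin, had -0.05 and 0.08, and with scaling to total counts it had 0.11 and 0.15, the same direction in both lines. The other 3 kept opposite directions with that scaling, with DESeq2 size factors and after thinning to the shallowest library. With total counts, however, *JAK1* in U87MG was at only -0.08, beside 0.35 in U251MG, and its counting interval at that scaling was not computed. These differences were not tested, since each arm has 1 library.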

How the results depend on the processing

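All 5 genes stayed lower by 2-fold or more in both lines, and all 5 kept the larger difference in U251MG, under DESeq2 size factors, total counts, a prior count of 0.25, the authors' FPKM at a pseudocount of 1 or 0.1, the most abundant RNA alone, and thinning to the shallowest library; the same held without second placements of RNAs, a setting chosen after seeing the data. The log2 fold change of *IFI6* ranged from -2.07 to -1.85 in U87MG and from -4.23 to -4.13 in U251MG, that of *IFI35* in U87MG from -1.72 to -1.43, and the difference between lines from -2.28 to -2.16 for *IFI6* and from -0.44 to -0.34 for *IFI27*. Scaling to total counts moved the median of all U87MG genes from 0.06 to 0.22, and the share of genes past 2-fold in U87MG that were higher from 69.3% to 77.8%; with at least 100 counts it was 52.3%, and after thinning 57.0%. In U251MG that share was 57.1%, with 33.8% at 100 counts and 45.8% after thinning. The share of all genes lower by 2-fold or more was 2.33% in U87MG and 2.18% in U251MG at 100 counts, and 6.87% in U251MG with no minimum beyond 1 count. The cell line contrast called 2972 genes, 1813 with DESeq2 and 579 with no other factor in the design, where the ratio of *IFI6* turned from -0.51 to 0.34 and *IFI44* lost its call at an adjusted p of 0.621; with at least 1 count in any library *IFI6* had an adjusted p of 0.0386. The shared shFLI1 effect had 379 genes, 1303 with at least 1 count in any library and 0 with no other factor in the design (edgeR, 712 at unadjusted p below 0.05). The causes were not tested. Each condition has 1 library, so no replicate could be left out.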
